A study of Drosophila melanogaster with 4 samples.

Results

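The right arm of the third chromosome, 3R, is the longest of the major chromosome arms of Drosophila melanogaster, and the regions described here are those of it that were called as enriched for H3K27me3. Every row of the deposited region lists with the sequence name 3R was taken, whatever its width or score, and the heterochromatic scaffold 3RHet was left out. This gave 334 of 1486 regions in ChIP replicate 1, 348 of 1459 in ChIP replicate 2, and 508 of 2279 in a further list that belongs to the series as a whole, called the series list below. The samples were 2 ChIP libraries and their 2 input libraries, all from whole wild-type embryos of the strain Oregon-R (Oregon-R-modENCODE) collected 14 to 16 h into development. The antibody is given as H3K27Me3 (Abcam2). Whole embryos mix many cell types, so a region is called for the mixture and not for any single tissue. Coordinates are in Release 5 of the fly genome, which the sequence lengths in the file headers match.

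H3K27me3, trimethylation of lysine 27 on histone H3, is written by the Polycomb repressive complex PRC2 and is read by a subunit of the complex PRC1. In flies the complexes are recruited at Polycomb response elements, from which the mark extends over wide domains. The mark is best known for keeping developmental regulators silent in the cells where they should be off, and above all the Hox genes, which give each body segment its identity. Arm 3R is known for carrying both Hox complexes of the fly, the Antennapedia complex and the Bithorax complex.

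The regions of 3R covered 3.53 Mb in replicate 1 and 3.62 Mb in replicate 2, which is 12.6% and 13.0% of the 27.9 Mb arm, or 12.8% ± 0.24 (SD, n = 2). The series list covered 4.24 Mb, or 15.2%. The replicates called the same bases to a large extent, with 3.35 Mb called in both and 3.81 Mb in either, a shared share of 87.9%. A minority of broad regions, here those 10 kb or wider, accounted for most of it: 75 in replicate 1 with 78.9% of the called bases, and 78 in replicate 2 with 78.7%. They were 22.5% and 22.4% of the regions by number. Replicate 1 had 18 regions of 50 kb or more, with 42.3% of the bases, and replicate 2 had 19, with 43.1%. Narrow regions, under 2 kb, were common but small in sum: replicate 1 had 114 with 5.13% of the bases, and replicate 2 had 129 with 5.75%. The median region was 2825.5 bp wide in replicate 1 and 2567.5 bp in replicate 2. No read counts were used, so the depth behind these calls is unknown.

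The longest stretches called in both replicates give the plainest view of the mark on this arm. The 12 longest spanned 1151 kb together, 34.4% of all bases shared by the replicates, and each lay within a single region of the series list. The longest ran from 12624865 to 12810710 (186 kb), and the regions behind it scored 2.31 in replicate 1 and 2.42 in replicate 2. The score is the authors' own value for a region. Its scale is not given in the sources at hand, and it is compared only within a list. A stretch of 101 kb just proximal to it, from 12482358 to 12583135, had scores of 1.96 and 2.05. On the standard map these stretches fall at the Bithorax complex, which holds the Hox genes Ubx, abd-A and Abd-B of the posterior thorax and the abdomen. In the proximal part of the arm, stretches of 137 kb (2738213 to 2875472, scores 1.73 and 1.84) and 87.0 kb (2649530 to 2736481, scores 2.13 and 2.24) fall at the Antennapedia complex, whose Hox genes lab, pb, Dfd, Scr and Antp act in the head and the anterior thorax.

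Between and beyond the Hox complexes lay the other long stretches. Next in length after the 137 kb stretch was one of 115 kb from 9670106 to 9784818, with scores of 2.35 in both replicates. Stretches of 87.8 kb (25329684 to 25417451), 77.4 kb (3966461 to 4043881), 75.9 kb (26538602 to 26614496) and 67.0 kb (647211 to 714217) were spread from the proximal to the distal part of the arm. Their scores lay between 1.92 and 2.83 in replicate 1 and between 2.02 and 2.81 in replicate 2. A 74.2 kb stretch from 17233833 to 17308031 had the highest scores of the 12, 2.90 and 2.89. It falls at the NK homeobox cluster in bands 93DE, which holds tin, bap, lbe, lbl, C15 and slou, several of them known for specifying heart and muscle cells. The 2 stretches with the lowest scores of the 12 were neighbours, 77.3 kb from 6423434 to 6500765 (1.52 and 1.46) and 65.8 kb from 6341821 to 6407636 (1.09 and 1.03). They fall at hth, which encodes a homeodomain partner of the Hox proteins. No gene annotation of Release 5 was used here, so these gene names come from general knowledge of the map. In a gene table of Release 6, which served for names and order only, Antp, hth, Ubx and tin follow each other along 3R in this order.

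Joining regions less than 20 kb apart grouped the calls into 115 domains in replicate 1 and 110 in replicate 2. Of these, 41 and 38 were a single region. The 10 domains with the most called bases held 49.1% of the called sequence of the arm in replicate 1 and 48.7% in replicate 2. The 4 with the longest span were the same places in both replicates, the Hox complexes, hth and the NK cluster, whereas in the series list a domain of 206 kb (11300192 to 11506174) came ahead of the NK cluster. In the replicates the 4 held 30.5% of the called bases on average. They were singled out after the spans were seen, and they differ in how solidly they were called.

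The Bithorax domain was the most continuous of the 4. It spanned 331 kb in both replicates (12482358 to 12813071 in replicate 1, 12482274 to 12813111 in replicate 2), and 98.5% and 98.7% of that was called. Only 4 regions made it up in replicate 1 and 3 in replicate 2, of which 3 in each list were at least 10 kb wide. A gap of 4087 bp in replicate 1 and 4057 bp in replicate 2, just before the regions that begin at 12587223 and 12587201, split off the proximal 101 kb. A second, shorter break lay at 12624190 to 12624864 in replicate 1 (675 bp) and at 12624537 to 12624654 in replicate 2 (118 bp). The broad regions scored between 1.93 and 2.31 in replicate 1 and between 2.05 and 2.42 in replicate 2, highest in each list for the long distal region.

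The Antennapedia domain spanned more sequence but was cut into more pieces. It ran over 395 kb from 2486197 to 2881201 in replicate 1 and over 394 kb from 2486404 to 2880823 in replicate 2. The called share of the span was 92.5% and 93.9%, in 16 and 18 regions. In each list 5 broad regions held 91.7% and 90.7% of its called bases, and their scores ran from 1.73 to 2.30 (replicate 1) and from 1.84 to 2.44 (replicate 2). The other 11 and 13 regions were shorter than 10 kb and had scores of 0.432 to 0.700 and 0.327 to 0.669, below every broad region of the domain. Most of the short regions filled the intervals between the broad ones. One such interval, between the broad regions that end at 2585084 and begin at 2605609 in replicate 1, held 5 short regions in that list.

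At hth the calls were the most fragmented of the 4 domains. The domain spanned 256 kb in both replicates (6245001 to 6500794 and 6244898 to 6500765) and was called over 85.9% of its span in replicate 1 and 84.2% in replicate 2. It held 22 and 25 regions, of which 18 and 23 were under 10 kb. The longest gap within it was 17776 bp in replicate 1 and 13283 bp in replicate 2, so joining only under 10 kb would split it. The broad regions were 4 in replicate 1 and 2 in replicate 2, all in the distal part except for a 13.5 kb region of replicate 1 (6310079 to 6323572), which replicate 2 split into 3. Their scores ran from 0.774 to 1.52 in replicate 1 and were 1.03 and 1.46 in replicate 2. The short regions to the proximal side had scores of 0.444 to 0.751 and 0.384 to 0.827. In the series list many of these pieces were joined, and the same span held 14 regions.

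The NK domain was shorter, 194 kb in both replicates (17202852 to 17396392 and 17202748 to 17396323), with the highest scores of the 4. Its broad regions, 4 in each list, scored between 2.22 and 2.90 in replicate 1 and between 2.21 and 2.89 in replicate 2. They were 30.0, 74.3, 32.5 and 42.7 kb wide in replicate 1, in order along the arm, and 30.1, 74.3, 32.5 and 42.4 kb wide in replicate 2. Replicate 2 had a further region of 1356 bp in the last gap, with a score of 0.490. The called share of the span was 92.8% and 93.3%. After hth and the Antennapedia complex, the domains with the most regions in replicate 1 were 3 that tied at 11, spanning 69.6 kb (12326155 to 12395746), 111 kb (13871172 to 13982601) and 63.9 kb (19242346 to 19306202). The map of the 4 longest domains shows long blocks at the Hox complexes and the NK cluster, and a ladder of short calls on the proximal side of the hth domain.

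**Figure D1:**
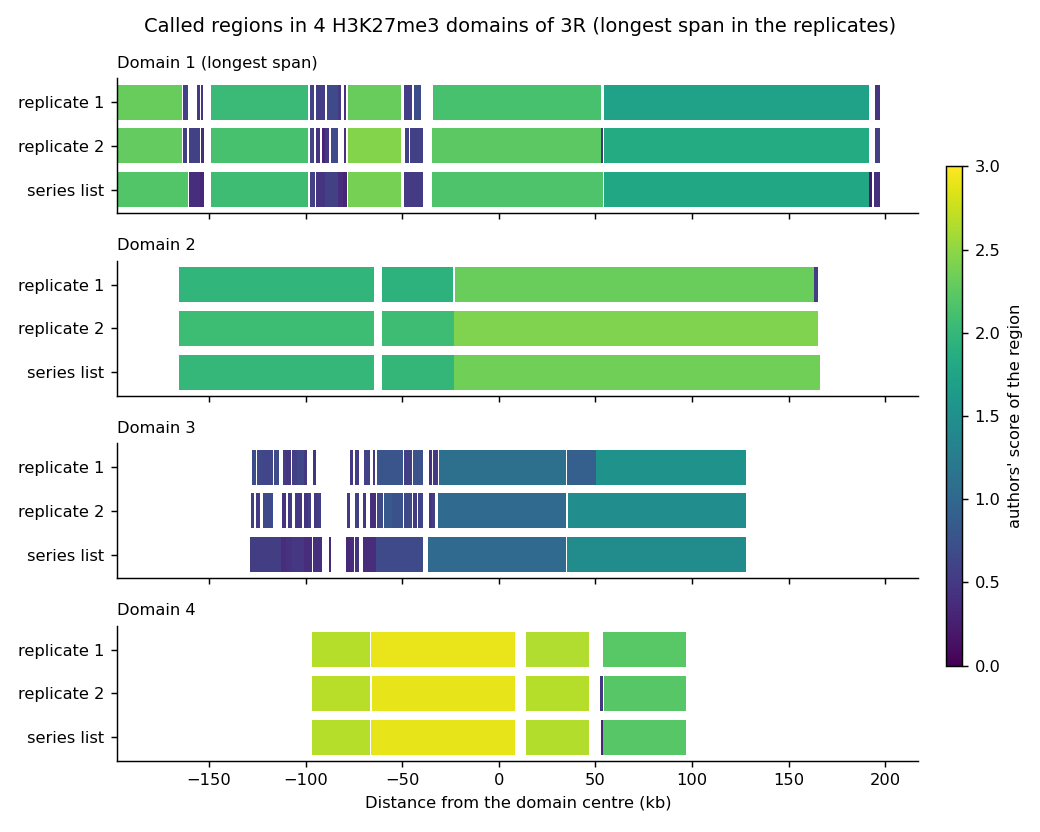
Called regions in the 4 domains of 3R with the longest span in the replicates, from the top the Antennapedia complex, the Bithorax complex, hth and the NK cluster, each drawn as distance from its centre in kb, with a row for each replicate and for the series list. Colour gives the authors' score of a region: the broad regions of the NK cluster reach 2.90, whereas the short regions of the hth domain stay at or below 0.827 in the replicates.

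By score, the leading regions of the arm were nearly the same in both replicates, and 7 of the top 8 of replicate 1 overlapped a top 8 region of replicate 2. The 74.3 kb region of the NK cluster came first in each, with 2.90 and 2.89. A compact region of 22.2 kb, from 8882010 to 8904257 in replicate 1 and 8882050 to 8904238 in replicate 2, came second with 2.90 and 2.86. The 67.1 kb region at 647211 to 714285 in replicate 1 (67.0 kb, 647194 to 714217 in replicate 2) took rank 3 with 2.83 and 2.81. Rank 4 went to the most distal region called in either replicate, only 5.93 kb wide in replicate 1 (27893855 to 27899786, score 2.81) and 5.92 kb in replicate 2 (27893869 to 27899784, score 2.80). It ended 5267 bp before the end of the arm in replicate 1 and 5269 bp before it in replicate 2. Rank 5 was a 22.2 kb region (20901262 to 20923465, 2.69) that was 22.5 kb wide in replicate 2 (20900957 to 20923478, 2.74).

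The remaining places of the top 8 went to 30.0 kb and 30.1 kb regions at the proximal end of the NK domain (2.66 and 2.68) and to a region in the proximal part of the arm. That region was 31.8 kb wide in replicate 1 (7173815 to 7205619, 2.67) and 29.9 kb in replicate 2 (7175726 to 7205639, 2.60). Replicate 1 was completed by a 33.7 kb region (25508330 to 25541995, 2.65) that ranked 11 in replicate 2 with 2.57. Replicate 2 was completed by the 32.5 kb region of the NK domain (17313721 to 17346230, 2.66) that ranked 9 in replicate 1 with 2.65. Of the 8 leading regions in each list, 3 lay in the NK domain in replicate 2 and 2 in replicate 1.

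Width and score went together across the arm. The median score of the broad regions was 1.84 in both replicates, and that of the regions under 10 kb was 0.545 in replicate 1 and 0.544 in replicate 2. Across regions, the Spearman coefficient of width and score was 0.86 in replicate 1 (334 regions), 0.87 in replicate 2 (348) and 0.64 in the series list (508). The regions of a list share a library and a caller, so the coefficient is a description. The distal end region was an exception to the trend, the only one under 10 kb with a score above the broad median in replicate 2. In replicate 1 a 9.29 kb region at 13878807 to 13888093 (1.93) was the other. In the same lists, the broad regions outside 3R had median scores of 1.46 and 1.48, but those of X alone had 2.07 in both, above 3R.

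**Figure D2:**
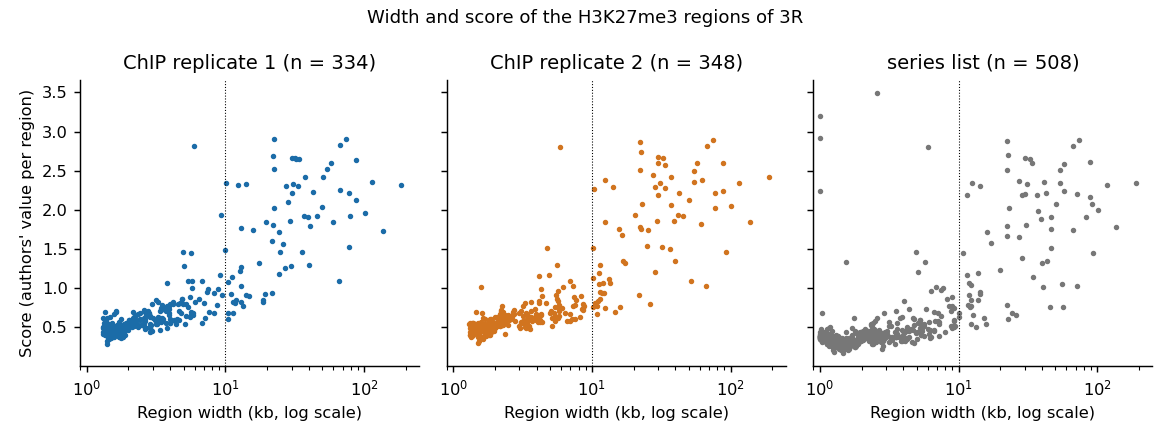
Width in kb on a log axis against the authors' score for every region of 3R, in replicate 1, replicate 2 and the series list, with a dotted line at 10 kb. Scores climb with width in each list, and the points at the upper left of the replicate panels are the 5.93 kb and 5.92 kb regions near the distal end (scores 2.81 and 2.80). The series list has 4 points with scores above 2 and widths under 3 kb.

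Called sequence was unevenly spread along the arm. Among 28 windows of 1 Mb, the last of them 0.905 Mb long, the median share called was 10.4%. More than 25% was called in both replicates in 3 windows, which held 31.8% of the called bases of the arm in replicate 1 and 31.4% in replicate 2. The window from 12 to 13 Mb, with the Bithorax complex, was called over 45.7% and 46.8%, and the window from 2 to 3 Mb, with the Antennapedia complex, over 38.0% and 38.2%. The window from 26 to 27 Mb followed with 28.5% and 28.9%. In it 30 regions began in replicate 1 and 27 in replicate 2, against 22 in each at 12 to 13 Mb and 18 and 19 at 2 to 3 Mb. The other windows averaged 9.79%. Under 2% was called in both replicates in 3 windows, from 1 to 2 Mb (1.71% and 1.75%), from 5 to 6 Mb (1.36% and 1.77%) and from 16 to 17 Mb (1.86% and 1.50%). The replicates differed by at most 2.03 percentage points in any window. In windows of 500 kb the order of the windows with the Hox complexes turned round: 2.5 to 3 Mb was the densest, with 73.5% ± 0.32 (SD, n = 2), ahead of 12.5 to 13 Mb with 63.7% ± 0.40 (SD, n = 2). The Antennapedia domain itself had more called bases than the Bithorax domain, 366 against 326 kb in replicate 1 and 370 against 327 kb in replicate 2. The window from 12 to 13 Mb also held other domains, such as one of 57.4 kb from 12200282 in replicate 1.

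**Figure D3:**
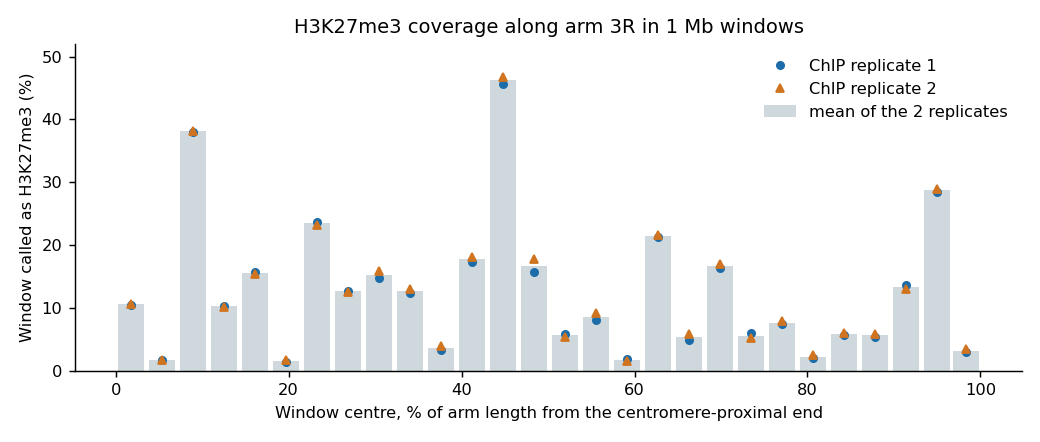
Share of each 1 Mb window of 3R called as H3K27me3 in percent, ordered by the position of its centre as a percentage of arm length from the centromere-proximal end. Bars are the mean of the 2 replicates and points the replicates. The windows with the Bithorax and Antennapedia complexes reach 46.2% and 38.1%, against a median of 10.4%.

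Cut into 3 parts of equal length, 9.30 Mb each, the arm was called over 13.9% ± 0.074 (SD, n = 2) in the proximal part, 14.6% ± 0.45 (SD, n = 2) in the middle part and 9.94% ± 0.21 (SD, n = 2) in the distal part. The distal part was lower than the others in both replicates, at 9.79% and 10.1%, and this gap was larger than the spread between replicates. It still held 111 and 118 regions, more than the 98 and 103 of the proximal part, but fewer broad ones, 21 and 22 against 29 and 28.

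Long intervals had no call in either replicate. There were 8 of at least 500 kb, which summed to 5.79 Mb or 20.8% of the arm. The longest ran from 19675318 to 20613158 (938 kb), followed by 1556238 to 2486196 (930.0 kb), which ends where the Antennapedia domain begins. Others were 799 kb (10521557 to 11320093), 681 kb (21931825 to 22613244) and 671 kb (15826106 to 16496700) long. The series list had 3 to 7 regions in each of these 5 intervals and covered between 0.174% and 1.25% of them. How well reads can be placed there was not examined, so the mark may be present in an interval with no call. At the proximal end the first call stood 164 kb from the start of the arm in both replicates, a 21.7 kb region in replicate 1 (164177 to 185867, score 1.60) and a 22.4 kb region in replicate 2 (164212 to 186648, score 1.75).

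The next comparison asked whether a region of one replicate was found in the other, with an overlap of at least 1 bp. On 3R this held for 277 of 334 regions of replicate 1, or 82.9% (95% Wilson interval 78.5 to 86.6), and for 269 of 348 of replicate 2, or 77.3% (72.6 to 81.4). The shares over all sequences of the series were 81.3% and 75.5%, within both intervals, so the arm was close to the whole. Every region of at least 5 kb on 3R was found in the other replicate, 108 of replicate 1 and 118 of replicate 2. So was every region of that width outside 3R. Among regions of 2 to 5 kb it was 93.8% (87.7 to 96.9) of 112 and 85.1% (76.9 to 90.8) of 101, against 91.8% and 84.4% outside 3R. Among those under 2 kb it was 56.1% (47.0 to 64.9) of 114 and 50.4% (41.9 to 58.9) of 129. Outside 3R the same class gave 55.6% and 42.5%. These intervals cover counting error only, and regions are not replicates. A wide region meets the 1 bp rule more easily than a narrow one, and how far this made the shares rise with width was not tested. With overlap of 50% of both regions required, 66.2% of replicate 1 and 63.5% of replicate 2 regions on 3R were found.

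**Figure D4:**
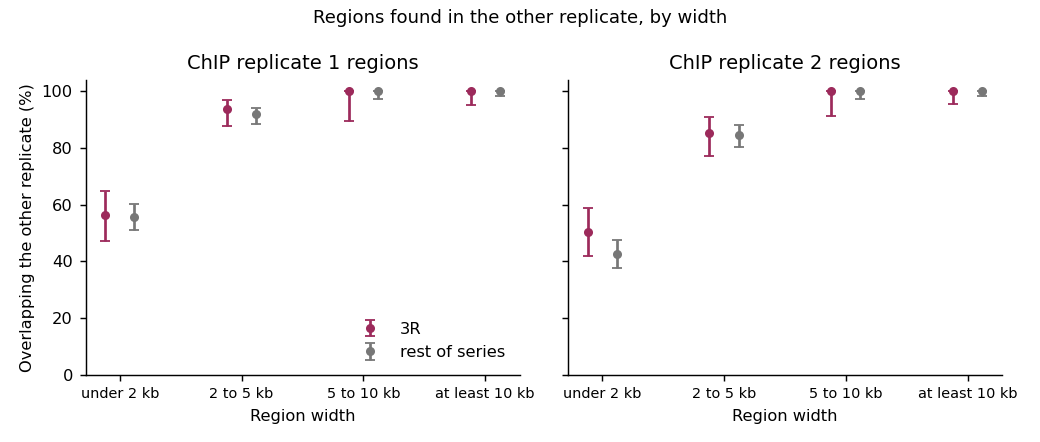
Percentage of regions that overlap the other replicate by at least 1 bp, by width class, for 3R and for the rest of the series, with 95% Wilson intervals; replicate 1 regions on the left and replicate 2 regions on the right. All classes from 5 kb up are at 100%, and the class under 2 kb lies near 50% to 56% on 3R.

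The regions found once were mostly short, and their median scores were no lower than those of all regions under 2 kb. Regions of 3R under 2 kb had median scores of 0.482 in replicate 1 and 0.480 in replicate 2. For all regions of 3R the medians were 0.599 and 0.597. On 3R 57 regions were found once in replicate 1 and 79 in replicate 2, with median scores of 0.498 and 0.493. They held 2.67% and 3.75% of the called bases. The highest score among them was 0.699 in replicate 1. In replicate 2 it was 1.01, for a region at 5663919 to 5665512 that was singled out after its score was seen and lay 220 kb from the nearest region of replicate 1. The longest of replicate 1 alone was 2.84 kb (25081443 to 25084284, score 0.434), 245 kb from the nearest region of replicate 2. The next were 2.69 kb (11354545 to 11357234), 2.62 kb (26664582 to 26667200), 2.44 kb (6256720 to 6259161) and 2.35 kb (26237897 to 26240245), all within 3.49 kb of a region of replicate 2. Replicate 2 alone had regions of 4.35 kb (15184623 to 15188967, score 0.559) and 3.32 kb (21897218 to 21900533, score 0.499). After them came 2.56 kb (9627089 to 9629645), 2.48 kb (24688174 to 24690653) and 2.36 kb (10411255 to 10413612). The 2.48 kb region lay 264 kb from the nearest region of replicate 1 and the 3.32 kb region 11.4 kb, and the other 3 within 5.16 kb. All 79 of replicate 2 and 54 of the 57 of replicate 1 overlapped the series list. The same count was not made outside 3R, so it marks no trait of this arm.

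Where a region of each replicate met only the other, which gave 173 pairs on 3R, the ends lay a median of 159 bp apart. In the 53 of these pairs that were broad in both lists the median was 81.5 bp, and 94.3% of the 106 ends were within 1000 bp. The scores of the 173 pairs had a Spearman coefficient of 0.93 across regions, 0.99 in the 53 broad pairs and 0.45 in the 35 pairs under 2 kb in both. Some broad regions were cut in the other list: 12 of the 75 of replicate 1, and 17 of the 78 of replicate 2, spanned 2 or more of its regions. A 51.5 kb region of replicate 2 (15621062 to 15672525) met 3 of replicate 1. Cuts of this kind were not counted outside 3R.

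Short breaks, gaps under 2 kb between regions of at least 5 kb each, numbered 16 in replicate 1 and 22 in replicate 2, with median lengths of 667.5 bp and 524.5 bp. Breaks in the 2 lists overlapped at 9 places, 56.2% of those of replicate 1 and 40.9% of those of replicate 2, and 5 of the 9 were also breaks in the series list. These 5 lay at 3965618 to 3966460, 6407740 to 6408399 (within the hth domain), 11491000 to 11491879, 12624190 to 12624864 (within the Bithorax domain) and 17232862 to 17233684 (within the NK domain) in replicate 1. The break at 17232862 was 823 bp long in replicate 1 and 1006 bp in replicate 2 and parted regions with scores of 2.66 and 2.90 in replicate 1. Of the other breaks, 4 in each replicate lay wholly inside a region of the other. GC content and read placement at the breaks were not examined, and breaks outside 3R were not counted.

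The series list held more and narrower regions on 3R than the replicates, and since it belongs to the same samples it is no independent check of them. Its median width was 2061.5 bp and its narrowest region 1001 bp, against 1305 bp in both replicates. Both replicates had a match for 203 of its 508 regions, with 87.8% of the bases, while 46 matched in replicate 1 only and 62 in replicate 2 only. The other 197, or 38.8% (Wilson interval 34.6 to 43.1), overlapped neither, where the whole series list had 40.7%. Their median width was 1265 bp, their median score 0.344, and their share of the bases 6.58%. Among its regions that scored no lower than the list's median the share that overlapped neither was 12.7%, and for regions of at least 2 kb it was 6.49%. Its broad regions on 3R, 80 in number, were all matched in both replicates, which was not counted outside 3R. The list added most in the window from 26 to 27 Mb, where it covered 35.4%, 6.72 percentage points more than the mean of the replicates, followed by 15 to 16 Mb with 13.6%, 4.93 points more.

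A few of the 197 had scores as high as the broad domains. The highest, 3.50, was that of the very last region of the arm (27902483 to 27905053, 2571 bp), whose deposited end lies 408 bp past the end of the sequence and was clipped to it. It lies 2.70 kb beyond the distal end region that both replicates called, which scored 2.81 in the series list. Next came regions of 1007 bp at 1849130 to 1850136 (3.20), 1001 bp at 14157598 to 14158598 (2.91) and 1007 bp at 1841690 to 1842696 (2.24), at or near the smallest width in the list. Those at 1849130 and 1841690 lie 293 kb and 285 kb from the nearest region of either replicate, within the empty interval proximal to the Antennapedia domain. The next, 1550 bp at 8296015 to 8297564, had 1.33.

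Set beside the other large arms, 3R was called over a larger share than 2R and X and a slightly smaller one than 2L and 3L. The share of 3R minus that of 2R was 2.70 and 2.83 percentage points in the 2 replicates, and minus that of X it was 2.57 and 2.58. Against 2L it was -0.62 and -0.81, and against 3L -0.33 and -0.69. The gap to 3L all but closed, at -0.0053 points on average, when regions scoring below the median of their list were dropped. In regions per Mb, 3R had 12.2 ± 0.35 (SD, n = 2), below 3L with 15.3 ± 0.26 (SD, n = 2) and above 2L with 10.5 ± 0.061 (SD, n = 2) and X with 9.08 ± 0.35 (SD, n = 2). The gap to X turned to -0.34 regions per Mb under the same limit on score. The gap to 2R, with 13.3 ± 0.77 (SD, n = 2), was within the spread between replicates, and it shrank to -0.076 under that limit and to -0.102 with regions under 2 kb dropped. Broad regions held 78.8% ± 0.14 (SD, n = 2) of the called bases on 3R, more than on 3L (71.3% ± 0.55) and 2R (69.1% ± 2.3) and less than on 2L (82.4% ± 0.14, SD, n = 2 for each). On X they held 79.9% ± 1.2 (SD, n = 2). Here 3R minus X was -0.23 and -2.12 percentage points, within the spread between replicates. Its mean turned to 3.45 under that limit on score and to 0.901 with regions under 1 kb apart merged. On all regions, both replicates had the same sign in each of these differences. With 2 replicates an exact 2-sided sign-flip permutation test cannot go below p = 0.5, which was its value for each (0.5 after adjustment over the 4 arms), so none of the differences is shown beyond these libraries. Arm 3R makes up 23.2% of the length of the large arms and chromosome 4 together. It held 24.6% and 24.4% of their called bases, and 18 of the 61 and 19 of the 63 regions of at least 50 kb in the replicates.

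**Figure D5:**
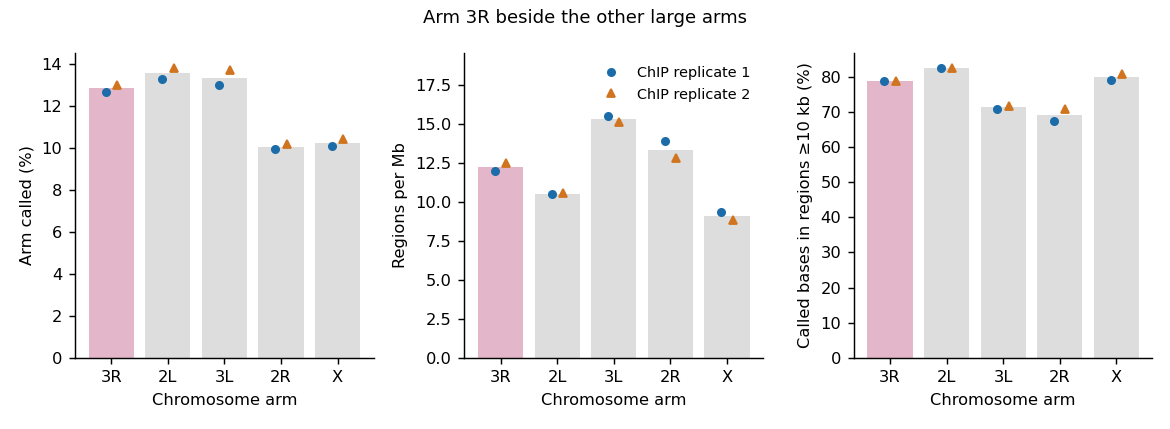
Share of the arm called in percent, regions per Mb, and share of called bases in regions of at least 10 kb in percent, for 3R and the other 4 large arms; bars are the mean of the 2 replicates and points the replicates. On the left, 3R stands at 12.8%, above 2R and X and below 2L and 3L.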

How the data were processed

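H3K27me3 was measured by ChIP and sequencing in 2 ChIP libraries with 2 matching inputs, grouped by their titles. Per the submitters' processing notes Bowtie 0.12.7 was used. Per the labels, each input served the region list of the ChIP library of its number. The deposited score is a positive number per region; its caller, scale and threshold, and the way the authors made the series list, are not stated in the sources at hand. Depth is unknown. The replicate label does not say whether libraries came from separate embryo collections.

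Rows named 3R were kept, 1 end was clipped to the arm, and overlap was counted from 1 bp. Named regions follow a rule: the 12 longest shared stretches, the 8 top scores, the 5 longest regions of each replicate alone, the 5 top scores of series list regions in neither, the 5 longest empty intervals, the 3 domains with the most regions in replicate 1, windows over 25%, and the arm's ends. Members, rule and lists were chosen with earlier results of these data known. No random placement was run. Software was numpy 2.4.6, pandas 2.3.3, scipy 1.17.1 and matplotlib 3.10.9 in Python 3.11.15. Tested on simulated data, the code for overlaps recovered 20 of 20 pairs of lists exactly.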

Additional observations from a re-analysis of the deposited data

How the results depend on the processing

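Joining regions under 10 kb or 50 kb apart, and the other-arm differences in density and breadth, were tried only after the data were seen. Dropping regions that score below the median of their list, the called share of 3R was 11.5%, overlap 89.0% of replicate 1 and 84.0% of replicate 2 regions, shared bases 91.4%, and series list regions in neither 12.7%. Keeping regions of at least 2 kb, these were 12.1%, 90.9%, 88.6%, 91.2% and 6.49%, with 7.87 regions per Mb. For the share of series list regions in neither, both limits were put on the series list alone, and all replicate regions stayed. Merging regions under 1 kb apart gave 8.62 regions per Mb, 84.8% of bases in broad regions and 88.4% of bases shared. Overlap of 50% of both regions gave 66.2%, 63.5% and 46.1% in neither. Counting as broad from 5 kb or 20 kb gave 85.6% or 68.9% of bases. Broad pairs alone had a median end difference of 81.5 bp, and 500 kb windows a densest share of 73.5%. Joining under 10 kb put 29.8% of called bases in the 4 longest domains.

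Against X, regions per Mb turned to -0.34 without regions below the median score. The difference from X in bases in broad regions, -1.17 percentage points on all regions, turned to 3.45 there and to 0.901 with merging. The cause was not tested. For called share, regions per Mb and share of bases in broad regions, the sign of every other difference from 2L, 3L, 2R and X was kept under the score limit, the 2 kb minimum and merging, and in each replicate alone. The differences from 3L in called share and from 2R in regions per Mb came down to -0.0053 percentage points and -0.076 under the score limit, the second also to -0.102 with the 2 kb minimum. Median width was not recomputed, and its difference from 3L had opposite signs in the replicates, 229 and -548.5 bp. Leaving out a replicate, the share of series list regions in neither ran from 47.8% to 51.0%, since fewer regions are there to meet. In all, 75 of the values recomputed stayed within the limits set, 24 moved and 3 reversed, but part of this count was fixed in advance. For values of 3R averaged over the replicates, leaving out a replicate could not count as moved. Any change in the share of bases shared counted as moved, and the end difference of broad pairs was always counted so. Differences between arms counted as reversed only where their sign changed. No paired analysis was possible because only the ChIP libraries have region lists, and the input libraries numbered like them were not analysed alone. With no depth given, the limits it sets were not measured.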
